A study of Mus musculus with 6 samples.

Results

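The interferon-inducible p200 family is a cluster of related genes on distal mouse chromosome 1, and 10 of its genes were followed here: Ifi202b, Ifi203, Ifi204, Ifi205, Ifi207, Ifi209, Ifi211, Ifi213, Mndal and Aim2. They were listed by name, with no cut-off on a measured value, out of 47729 genes in the count table, and all 10 passed the filter on low counts that left 15330 genes for testing. RNA was sequenced from whole spleens of female mice of 2 strains. NOD.B10 (NOD.B10Sn-H2b/J) is a spontaneous model of primary Sjögren's disease, an autoimmune disease of the salivary and lacrimal glands, and it carries the C57BL/10 MHC haplotype on the NOD background. BL/10 (C57BL10/SnJ) is its control. There were 3 libraries per strain with no treatment in either. All 3 NOD.B10 libraries and BL/10 replicate 1 were labelled 26 weeks, whereas BL/10 replicates 2 and 3 were labelled 36 weeks. The study's methods describe the controls as matched for age, which these labels do not show, and under the labels strain and age are partly confounded. The sample titles and strain fields name the opposite strain to the sample descriptions and the column names of the table in all 6 libraries. The descriptions and column names were followed, and every direction given here would be reversed under the titles. The age labels come from the same sample records, so which libraries came from mice of 36 weeks is uncertain too.

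The p200 proteins bind DNA through a C-terminal domain shared by the family, and most of them also carry an N-terminal pyrin domain through which they contact other proteins. Interferon induces many of the genes, in spleen above all in myeloid and lymphoid cells. AIM2 binds double-stranded DNA in the cytosol and nucleates an inflammasome with the adaptor ASC and caspase-1. Ifi202b encodes p202, which has no pyrin domain, is known to antagonise AIM2 and is a lupus candidate gene of mouse chromosome 1. Interferon acts on its target genes through the interferon-stimulated response element (ISRE) and through the gamma-activated site (GAS), each a short DNA motif in the promoter.

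The 10 genes lay between bases 173350879 and 174031810 of chromosome 1 (GRCm38), a span of 680932 bases. Aim2 (chr1:173350879-173466040, plus strand) opened the span, and Ifi213 (chr1:173566284-173599274, minus) and Ifi209 (chr1:173630917-173647928, plus) followed. Ifi207 (chr1:173723430-173741809), Ifi204 (chr1:173747293-173766943), Mndal (chr1:173857220-173942491), Ifi211 (chr1:173896345-173913046), Ifi203 (chr1:173920407-173942672), Ifi202b (chr1:173962568-173982744) and Ifi205 (chr1:174011998-174031810) were all on the minus strand. Exons of Mndal and Ifi203 overlapped over 37 bases, and no other pair of the 10 genes had overlapping exons.

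The promoters were taken from RefSeq (GRCm38.p6, 250 bases before to 50 bases after each start), which held entries for 9 of the 10 genes, all but Ifi204. They were searched on both strands for the ISRE core GAAANNGAAA and the GAS core TTCNNNGAA, where N is any base. The ISRE core was found in 6 of these 9 genes (Ifi203, Ifi205, Ifi207, Ifi211, Ifi213 and Mndal), against 3.99% of all 27025 genes with a promoter. The GAS core was found in 1 of the 9, Ifi202b, which is near the 9.55% of all genes. Its presence therefore does not set these genes apart. The sequences are shown because genes with close copies of the same promoter in the reference genome differed between the strains by unequal amounts or in opposite directions. Among the closest copies, only Ifi211 and Ifi205 paired a gene that passed the strain test given below with a gene that did not. Ifi211 was also the most obscured of the 10 in its read counts, as given below. Each is 50 bases long, read 5′ to 3′ on the gene's strand, with the ISRE core in capitals. In Ifi209 the capitals mark the 10 bases aligned with the core of Ifi214, a neighbouring p200 gene.
Ifi213 (chr1:173599316-173599365, minus): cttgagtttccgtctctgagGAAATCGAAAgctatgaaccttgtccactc
Ifi208 (chr1:173673587-173673636, plus): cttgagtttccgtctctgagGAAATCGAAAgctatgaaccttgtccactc
Ifi206 (chr1:173491329-173491378, minus): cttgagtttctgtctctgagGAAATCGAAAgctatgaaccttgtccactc
Ifi214 (chr1:173536007-173536056, minus): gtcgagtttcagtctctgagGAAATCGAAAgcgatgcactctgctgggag
Ifi209 (chr1:173630760-173630809, plus): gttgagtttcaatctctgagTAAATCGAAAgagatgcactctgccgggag
Ifi207 (chr1:173741821-173741870, minus): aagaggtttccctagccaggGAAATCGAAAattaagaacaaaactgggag
Ifi211 (chr1:173913054-173913103, minus): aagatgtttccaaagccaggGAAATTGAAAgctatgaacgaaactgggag
Ifi205 (chr1:174031860-174031909, minus): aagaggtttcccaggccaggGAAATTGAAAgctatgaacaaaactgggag
Ifi203 (chr1:173942498-173942547, minus): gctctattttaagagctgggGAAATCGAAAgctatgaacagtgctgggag
Mndal (chr1:173880194-173880243, minus): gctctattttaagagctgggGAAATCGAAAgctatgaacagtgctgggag

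The windows of Mndal and Ifi203 were identical, as were those of Ifi213 and Ifi208, and over the whole promoter these pairs were 97.6% and 98.9% identical in the aligned bases. The promoters of Ifi211 and Ifi205 were 94.0% identical over 201 aligned bases. The core began 35 to 41 bases before the start of Ifi203, Mndal, Ifi211 and Ifi207, 73 bases before that of Ifi213 and 134 bases before that of Ifi205. In Ifi203 it lay in only 1 of the 2 annotated promoters. The Ifi209 window differed from that of Ifi214 at 5 of 50 positions, counted from 1 at the 5′ end (C3T, G12A, G21T, C32A and T45C, Ifi214 base first), of which G21T fell in the core, so the search did not score Ifi209. The promoter of Ifi202b held no ISRE core in the window searched. Its GAS core, in capitals, began 148 bases before the start.
Ifi202b (chr1:173982964-173983012, minus): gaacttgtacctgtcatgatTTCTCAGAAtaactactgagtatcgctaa

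The deposited table gave raw counts per gene, from which reads that mapped to several places were left out, so the copies are not equally visible. The libraries held 15662712 to 18298451 counts, and 3 counts, the limit that a count of 0 allows, corresponded to 0.164 to 0.192 CPM (counts per megaread of library total). The transcripts of each gene were cut into every possible stretch of 50 bases, the read length, and compared with those of all other genes. None of the stretches of Ifi202b occurred exactly in another gene, and 0.742% of those of Aim2 did. The shares were 7.29% for Ifi207, 12.4% for Ifi203, 15.6% for Ifi213, 18.6% for Ifi205, 19.6% for Mndal, 20.02% for Ifi204 and 33.7% for Ifi209. Ifi211 was the most obscured of the 10, with 72.8% of its stretches shared, mainly with Ifi205 (44.7%) and Ifi204 (30.1%). Nearly all shared stretches of Ifi209 were shared with Ifi214 (33.4%). Counts of Ifi211 and Ifi209 therefore come from the remaining part of the transcripts and are uncertain to that degree. How sequence differences between the NOD.B10 copies and the reference affected read placement was not tested.

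**Figure D1:**
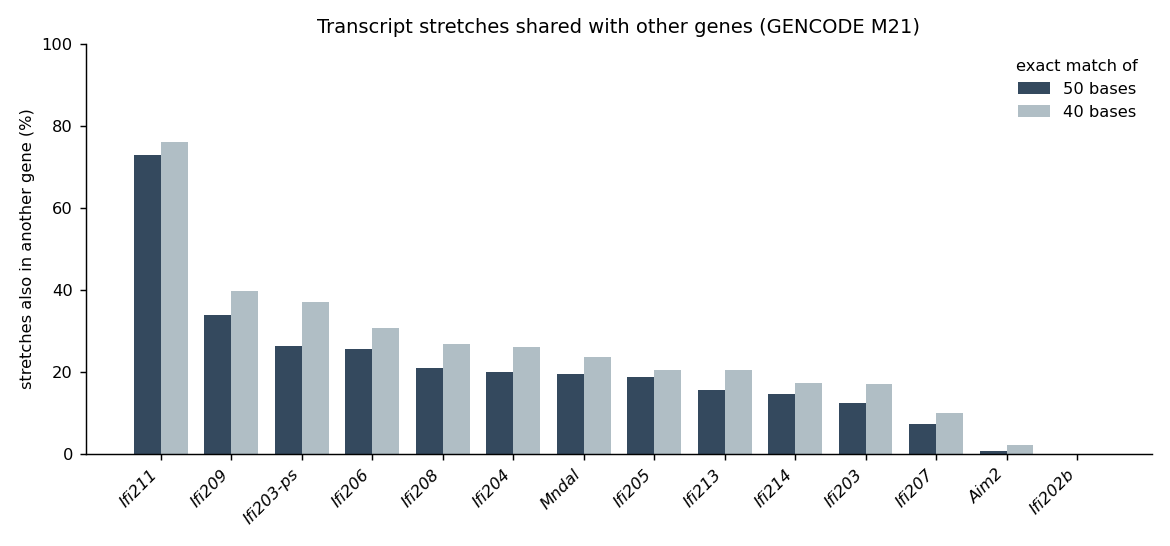
Share of the distinct stretches of each p200 gene that occur exactly in transcripts of another gene (per cent, vertical axis), with dark bars for stretches of 50 bases and light bars for 40 bases. At 50 bases Ifi211 has the largest share at 72.8%, Ifi209 stands at 33.7%, and Aim2 and Ifi202b are at 0.742% and 0%.

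Between the strains, 1 of the 10 genes was higher in NOD.B10 (Ifi202b) and 4 were lower (Ifi213, Ifi209, Ifi207 and Ifi211) by the quasi-likelihood test of edgeR, with an adjusted p below the threshold of 0.05. The other 5, Ifi203, Ifi204, Ifi205, Mndal and Aim2, did not pass. Over all 15330 genes tested, 17.3% passed, 9.11% being higher and 8.22% lower in NOD.B10. The 3 libraries of one strain lay entirely above those of the other for 6 of the 10 genes, against 38% of all genes tested. The median log2 fold change (NOD.B10 against BL/10) was −0.21 over the 10 genes and 0.00 over all genes tested, with 5 genes positive and 5 negative. Without the 2 BL/10 libraries labelled 36 weeks, which leaves 1 BL/10 library, only Ifi202b, Ifi213 and Ifi209 still passed. Fewer of all genes passed in that fit too.

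**Figure D2:**
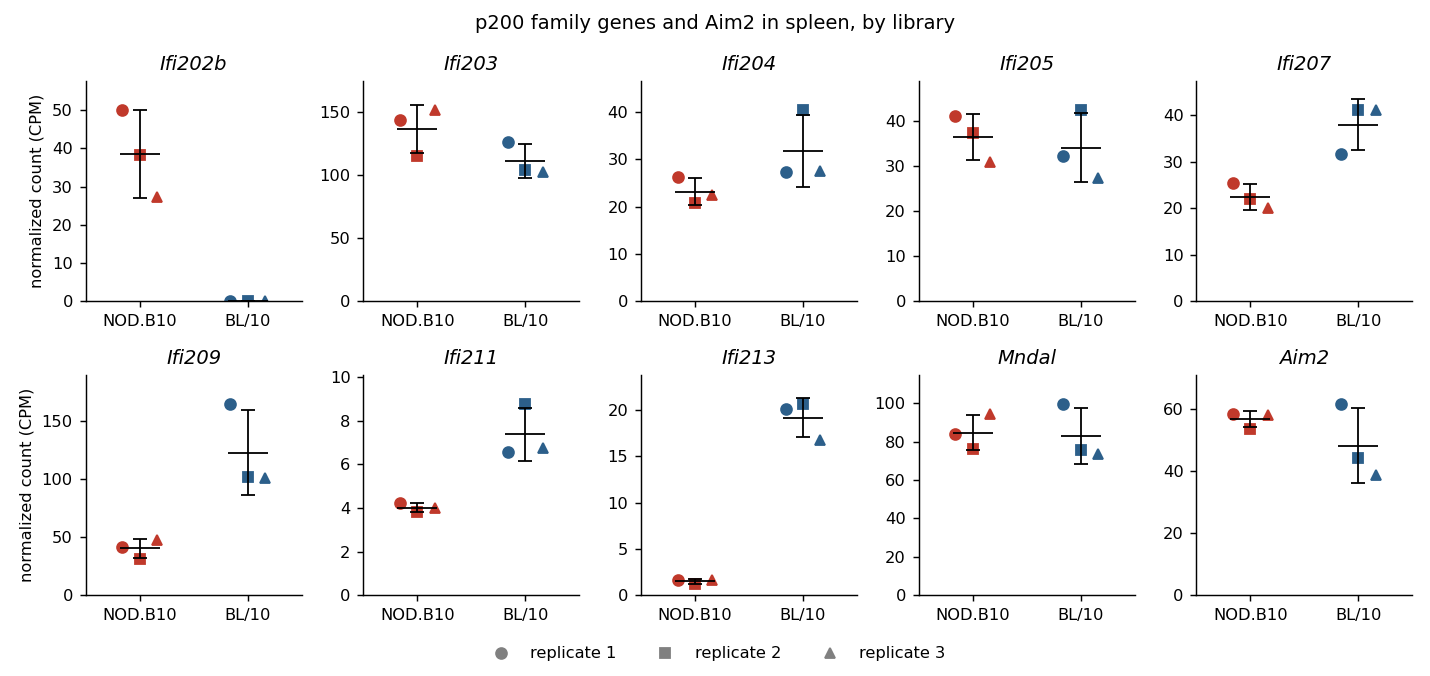
Normalised counts (CPM, linear axis from 0, with its own scale for each gene) of the 10 genes in the 6 spleen libraries, by strain, where symbols mark the replicates and bars the mean and SD of 3 libraries. Ifi202b lies at 27.3 to 50.1 CPM in NOD.B10 and near 0 in BL/10, Ifi213 shows the opposite order, and Ifi203, Ifi205, Mndal and Aim2 overlap.

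Ifi202b (ENSMUSG00000026535) was the gene with the widest difference. NOD.B10 replicates 1 to 3 gave 838, 624 and 485 reads for it, against 2, 0 and 0 reads for the BL/10 replicates. In CPM these were 50.1, 38.3 and 27.3 in NOD.B10, a mean of 38.6 ± 11.4 (SD, n = 3), and 0.109, 0 and 0 in BL/10. All 3 NOD.B10 libraries were thus far above BL/10, where the gene did not exceed the floor of 3 counts in any library. Against that floor Ifi202b was at least 216-fold higher in NOD.B10 (edgeR adjusted p = 4.54e-05). It accounted for 10.5%, 9.58% and 5.95% of the reads of the 10 genes in the NOD.B10 libraries. None of its 50-base stretches matched another annotated gene exactly. That check covers exact matches among reference transcripts only, and the placement of reads with NOD.B10 sequence differences was not tested.

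Ifi213 (ENSMUSG00000073491), a pyrin-containing member, moved the other way. The NOD.B10 libraries gave 27, 19 and 30 reads for it and the BL/10 libraries 370, 309 and 296. The levels were 1.61, 1.17 and 1.69 CPM in NOD.B10 and 20.1, 20.7 and 16.8 CPM in BL/10. Every BL/10 library was thus well above every NOD.B10 library, and the spread within each strain was small beside the gap. The means were 1.49 ± 0.281 and 19.2 ± 2.10 CPM (SD, n = 3 each), a 12.8-fold lower level in NOD.B10, with a log2 fold change of −3.68 ± 0.18 (SE, edgeR adjusted p = 3.00e-05).

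Ifi209 (ENSMUSG00000043263) was 41.4, 31.4 and 47.7 CPM in NOD.B10 and 165, 101 and 101 CPM in BL/10. The groups did not overlap, and BL/10 replicate 1, the one labelled 26 weeks, was above the other two. The means were 40.2 ± 8.20 and 122 ± 36.6 CPM (SD, n = 3 each), 3.04-fold lower in NOD.B10, with a log2 fold change of −1.61 ± 0.23 (SE, edgeR adjusted p = 0.00362). It took 8.99% ± 1.30 of the reads of the 10 genes in NOD.B10 and 24.4% ± 3.99 in BL/10 (SD, n = 3 each).

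The 2 other genes that fell did so by smaller amounts. Ifi207 (ENSMUSG00000073490), another pyrin-containing member, was 25.5, 21.99 and 19.9 CPM in NOD.B10 and 31.6, 41.1 and 41.1 CPM in BL/10, 1.69-fold lower in NOD.B10. Its log2 fold change was −0.75 ± 0.14 (SE, edgeR adjusted p = 0.0110). Ifi211 (ENSMUSG00000026536) was 4.25, 3.81 and 3.99 CPM in NOD.B10 and 6.57, 8.78 and 6.76 CPM in BL/10, 1.83-fold lower, with a log2 fold change of −0.87 ± 0.17 (SE, edgeR adjusted p = 0.0127). For both genes the strains did not overlap, and BL/10 replicate 1 was the lowest of the 3 BL/10 libraries. Without the 2 libraries labelled 36 weeks the log2 fold changes were −0.49 for Ifi207 and −0.71 for Ifi211 and neither passed (edgeR adjusted p = 0.153 and 0.121).

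Ifi204 (ENSMUSG00000073489) encodes p204, which takes part in cell differentiation and in DNA sensing through STING. It was 26.3, 20.8 and 22.5 CPM in NOD.B10 and 27.3, 40.5 and 27.5 CPM in BL/10. The strains did not overlap, but the highest NOD.B10 library and the lowest BL/10 library were close together. The log2 fold change of −0.45 ± 0.18 did not pass (SE, edgeR adjusted p = 0.115).

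Aim2 (ENSMUSG00000037860), the inflammasome sensor, was 58.3, 53.6 and 58.1 CPM in NOD.B10 and 61.7, 44.1 and 38.6 CPM in BL/10. BL/10 replicate 1 was the highest of all 6 libraries and the other 2 BL/10 libraries were the lowest, so the strains overlapped. The means of 56.7 ± 2.65 and 48.2 ± 12.04 CPM (SD, n = 3 each) gave a log2 fold change of 0.23 ± 0.17, which did not pass (SE, edgeR adjusted p = 0.353). The result turned on BL/10 replicate 1. Without it the log2 fold change was 0.45 and passed (edgeR adjusted p = 0.0173). More of all genes passed in that fit too, 4107 of 15590 against 2656 of 15330 with all libraries. All NOD.B10 libraries in that fit were labelled 26 weeks and no BL/10 library was. The fit therefore cannot separate strain from age label. With replicate 1 as the only BL/10 library, which leaves NOD.B10 alone to give the spread, the log2 fold change was −0.12. BL/10 replicate 1 was the only BL/10 library labelled 26 weeks, and it stood apart in other ways. Its pancreatic acinar markers summed to 11780 CPM, against 1843 and 106 CPM in replicates 2 and 3, and its B cell markers to 4878 CPM, against 2746 and 2949 CPM. Its erythroid markers summed to 28855 CPM, against 57070 and 66308 CPM in replicates 2 and 3, and its neutrophil markers to 6007 CPM, against 12607 and 11028 CPM. These features and age cannot be told apart in 1 library, and their part in the Aim2 result was not tested.

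Ifi203 (ENSMUSG00000039997) had the highest mean CPM of the 10 in NOD.B10 and was second to Ifi209 in BL/10. It was 143, 116 and 152 CPM in NOD.B10 and 126, 105 and 103 CPM in BL/10, with the strains overlapping and a log2 fold change of 0.30 ± 0.13 (SE, edgeR adjusted p = 0.157). Mndal (ENSMUSG00000090272), associated with restraint of cell growth, was 83.9, 76.0 and 94.4 CPM in NOD.B10 and 99.9, 75.8 and 73.5 CPM in BL/10. Its log2 fold change was 0.03 ± 0.14 (SE, edgeR adjusted p = 0.907). Ifi205 (ENSMUSG00000054203), known from macrophages, was 40.9, 37.3 and 30.8 CPM in NOD.B10 and 32.3, 42.4 and 27.3 CPM in BL/10. Its log2 fold change was 0.10 ± 0.18 (SE, edgeR adjusted p = 0.731). For Mndal and Ifi205 the libraries of the strains were interleaved, and neither direction was stable when single libraries were left out.

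BL/10 replicate 1 was the highest BL/10 library for 4 of the 10 genes, at 1.63 times the mean of the other 2 for Ifi209, 1.49 times for Aim2, 1.34 times for Mndal and 1.22 times for Ifi203. It was the lowest for 3, at 0.767 times for Ifi207, 0.802 times for Ifi204 and 0.845 times for Ifi211. For Ifi213 and Ifi205 it lay between the others. The 10 genes therefore did not move together in this library, which differed from the other 2 in its age label and in its acinar, B cell, erythroid and neutrophil marker sums.

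Summed over the 10 genes, the p200 level was 476, 400 and 458 CPM in NOD.B10 and 570, 479 and 435 CPM in BL/10. The strains overlapped in this sum, with means of 445 ± 39.7 and 495 ± 68.9 CPM (SD, n = 3 each). The make-up of the sum differed more than its size. Ifi203 took 30.7% ± 2.19 of these reads in NOD.B10 and 22.5% ± 0.931 in BL/10, whereas Ifi213 took 0.333% ± 0.0384 and 3.90% ± 0.402 (SD, n = 3 each).

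**Figure D3:**
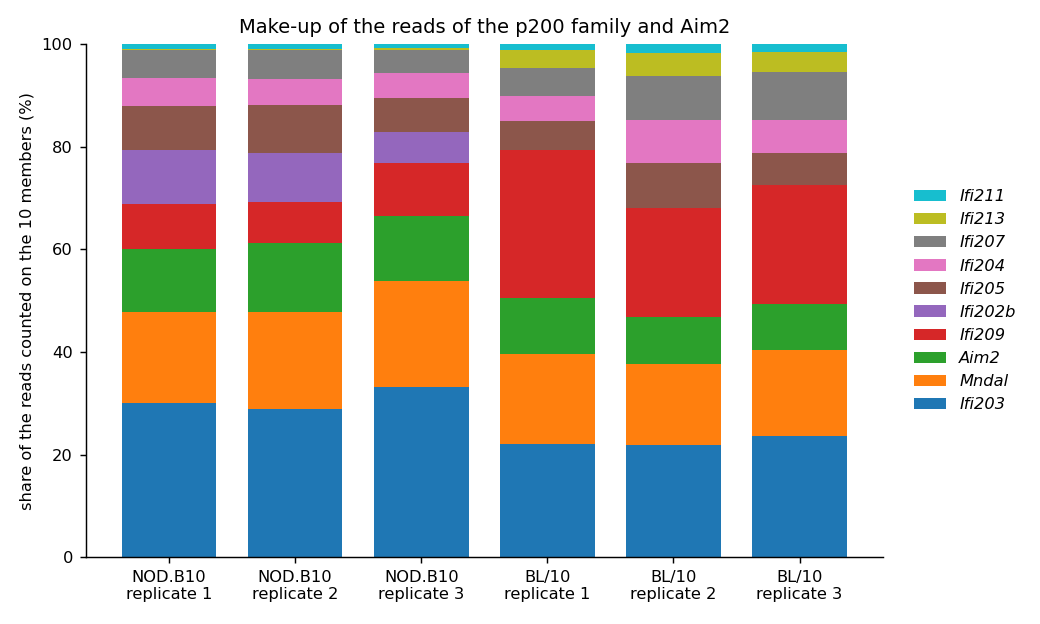
Stacked bars of the share of the reads counted on the 10 genes (per cent, vertical axis) that fell on each gene, with 1 bar per library. The segment of Ifi202b is 5.95% to 10.5% in the NOD.B10 bars and not visible in the BL/10 bars, and the segment of Ifi209 is smaller in every NOD.B10 bar than in any BL/10 bar.

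Levels between genes were compared per kilobase of exon (CPM per kb). In NOD.B10 the order of the means was Mndal (24.6 ± 2.69), Ifi202b (22.7 ± 6.74), Ifi203 (20.4 ± 2.84) and Aim2 (16.2 ± 0.758), in CPM per kb with SD over 3 libraries. The ranges of Mndal, Ifi202b and Ifi203 overlapped from neighbour to neighbour, and Aim2 stood apart from the genes above and below it. Ifi209 (11.3), Ifi205 (8.70), Ifi204 (6.51) and Ifi207 (6.46) formed a chain of overlapping ranges, and Ifi211 (2.25) and Ifi213 (0.218) were each apart. In BL/10 the order opened with Ifi209 (34.5 ± 10.3 CPM per kb), which overlapped with Mndal (24.1 ± 4.24), then Ifi203 (16.6 ± 1.97). Aim2 (13.8), Ifi207 (10.9), Ifi204 (8.92) and Ifi205 (8.14) followed in overlapping ranges, then Ifi211 (4.13) and Ifi213 (2.81) in turn, with Ifi202b at the floor. Thus Ifi202b ranked among the most abundant p200 transcripts of NOD.B10 spleen and last in BL/10, while Ifi209 had the highest mean in BL/10, within overlapping ranges of Mndal. Exon lengths include every annotated transcript, so a per-kilobase level is a lower estimate for genes with many isoforms. Reads mapped to several places were not counted, so it is also a lower estimate for genes with shared stretches. The shared part was 72.8% for Ifi211 and 33.7% for Ifi209, against 0.742% for Aim2 and 0% for Ifi202b. The levels were not corrected for this, and the order and the gaps between genes hold only for the uncorrected values.

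The remaining p200 genes of the cluster, which were not among the 10, showed differences in both directions. Ifi206 received 50, 27 and 71 reads from the NOD.B10 libraries against 478, 394 and 389 from BL/10, 8.55-fold lower in CPM (log2 fold change −3.10 ± 0.26, SE, edgeR adjusted p = 0.000314). Ifi208 was 3.00-fold lower (−1.59 ± 0.20, SE, edgeR adjusted p = 0.00208). Ifi214 was higher, at 23.1, 18.5 and 22.4 CPM in NOD.B10 against 13.6, 9.52 and 8.64 CPM in BL/10 (a 2.01-fold difference, SE of the log2 fold change 0.19, edgeR adjusted p = 0.0104), a call that was lost without the 2 libraries labelled 36 weeks (edgeR adjusted p = 0.0955). The pseudogene Ifi203-ps did not pass (edgeR adjusted p = 0.174).

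Genes with near-identical promoters in the reference genome thus did not share 1 pattern. The promoter sequences of the strains themselves were not examined. Ifi213, Ifi206 and Ifi208, whose promoters were 98.9% to 99.3% identical in pairs, were all lower in NOD.B10, but by unequal amounts. The ratio of Ifi213 to Ifi208 counts was 0.262, 0.224 and 0.192 in NOD.B10 and 0.949, 0.936 and 0.964 in BL/10. Ifi209 and Ifi214, with 96.0% identical promoters, differed in opposite directions, and the ratio of their counts was 1.79, 1.70 and 2.13 in NOD.B10 against 12.1, 10.6 and 11.7 in BL/10. The ratio of Ifi203 to Mndal was 1.71, 1.52 and 1.61 in NOD.B10 and 1.27, 1.38 and 1.40 in BL/10. For Ifi206 to Ifi208 it was 0.485, 0.318 and 0.455 in NOD.B10 and 1.23, 1.19 and 1.27 in BL/10. For Ifi205 to Ifi211 it was 9.63, 9.79 and 7.72 in NOD.B10 and 4.91, 4.82 and 4.04 in BL/10. These ratios are taken within a library and do not depend on its scaling. The values of the strains did not overlap for any of these pairs. For Ifi209 and Ifi214 this follows from their opposite shifts, each without overlap. In the other pairs too the ratios restate the unequal fold changes of the single genes given above, so they are not a separate test. How often such ratios separate the strains over other pairs of genes was not computed. All these pairs share stretches of transcript (1182 between Ifi209 and Ifi214, 951 between Ifi213 and Ifi208, 230 between Ifi203 and Mndal). Ifi206 and Ifi208 share 319, and Ifi205 and Ifi211 share 774. The part of this sharing in the ratios was not tested.

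**Figure D4:**
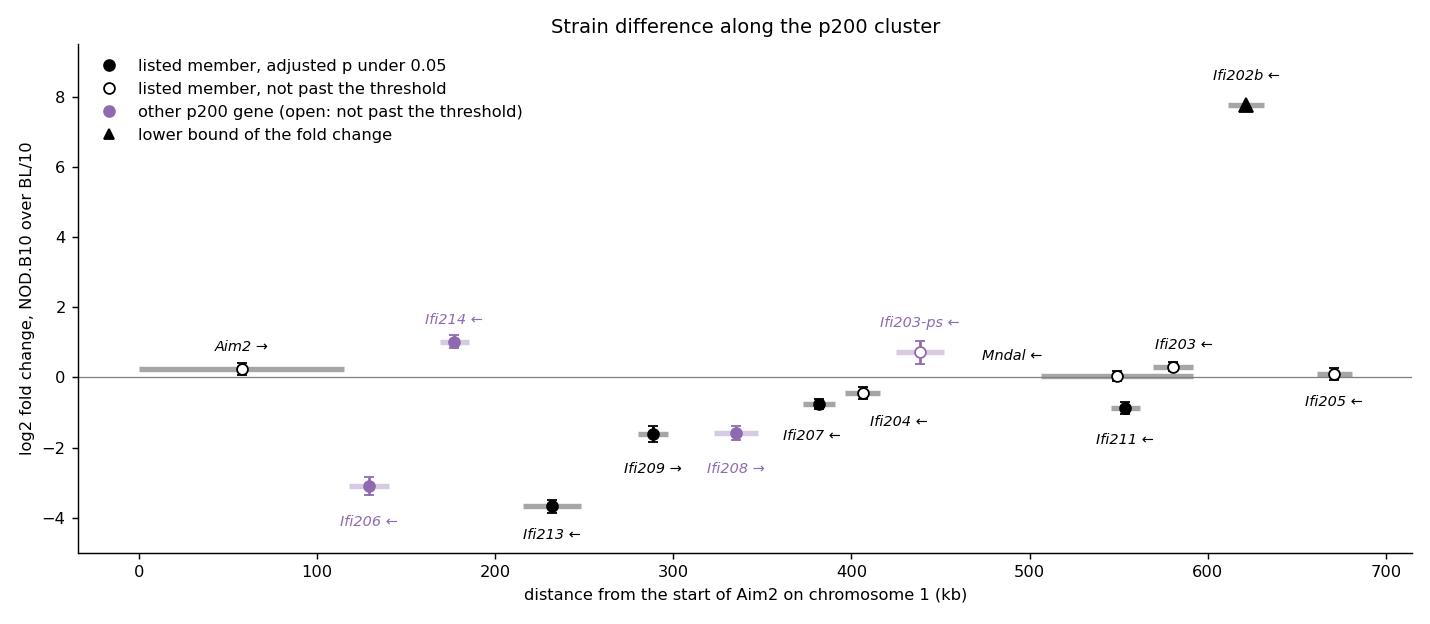
Log2 fold change of NOD.B10 over BL/10 (vertical axis) of the 10 genes (black) and the other p200 genes (purple) by distance from the start of Aim2 (kb), where horizontal bars span the gene, vertical bars are 1 SE, arrows give the strand and open symbols did not pass the threshold. Ifi202b is a triangle at its lower bound of 7.76, and Ifi213 and Ifi206 have the lowest values, −3.68 and −3.10.

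Other genes within 1 Mb of the span were read beside the 10 for context. Of 71 such genes, 21 were tested, and 2 of these rose and 8 fell in NOD.B10 relative to BL/10, 47.6% in all, with a median log2 fold change of −0.37. These include the p200 genes Ifi206, Ifi208 and Ifi214. The 60 genes outside the span included 17 tested, of which 1 was higher (Olfr433, an olfactory receptor gene, 2.52) and 6 lower, 41.2% against 17.3% of all genes tested. Among these Fcer1a, the alpha chain of the high-affinity IgE receptor, had a log2 fold change of −3.30 and Olfr420 was at least 7.43-fold lower. Without the 2 libraries labelled 36 weeks, which leaves 1 BL/10 library, fewer of the neighbouring genes passed, all lower in NOD.B10. Fewer of all genes passed in that fit too.

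The genes on which p200 proteins act, or which act on them, were read from lists. Of 30 tested DNA sensing and inflammasome genes, 3 were higher and 4 lower, 23.3% in all, near the 17.3% of all genes tested when both lists are pooled. By list, 6 of 19 DNA sensing genes (31.6%) and 1 of 11 inflammasome genes (9.09%) passed. Tmem173, which encodes the STING adaptor used by Ifi204, was higher (log2 fold change 0.64), as were Ikbke, a kinase of the interferon pathway (0.69), and Dnase1l3, an extracellular nuclease (0.71). Rnaseh2b (−0.73) and Rnaseh2c (−0.74), subunits of a ribonuclease that removes RNA from DNA, were lower, as were Xrcc6 (−0.79), a DNA end-binding protein, and Nlrc4 (−0.53), an inflammasome receptor. The partners of AIM2 did not pass: the values were 0.06 for Pycard, which encodes ASC, 0.31 for Casp1, −0.02 for Gsdmd, 0.19 for Il18 and 0.65 for Il1b (edgeR adjusted p = 0.181). Of 12 tested genes for binding partners of p202, 1 passed, Rbl2 at 0.37, which encodes the pocket protein p130. Without the libraries labelled 36 weeks, which leaves 1 BL/10 library, the calls of Tmem173, Ikbke and Dnase1l3 were lost. Calls over all genes fell too in that fit. The count of DNA sensing and inflammasome genes fell to 3 without NOD.B10 replicate 1 or BL/10 replicate 3. It fell to 4 without NOD.B10 replicate 3 or BL/10 replicate 2. Over all genes tested the calls fell from 2656 to 1269, 1744, 1395 and 1580 with these libraries left out, in the same order. The count of p202 partners ranged from 0 to 5 over the libraries left out in turn.

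Most interferon response genes that passed the test moved opposite to Ifi202b. Of 52 tested genes for interferon signalling and for products induced by interferon, 3 were higher and 18 lower in NOD.B10, 40.4% in all against 17.3% of all genes tested. By list, 3 of 14 signalling genes (21.4%) and 18 of 38 induced genes (47.4%) passed. Among the lower were Oas3 (−2.20), Isg15 (−1.89), Oas1a (−1.71) and Oasl1 (−1.60), all induced by type I interferon, and Irf7 (−1.27), a regulator of that response. The higher genes were Irf1 (0.42), and Gbp2 (0.96) and Igtp (0.69), 2 GTPases known to be induced by interferon gamma. The median over the 38 induced genes was −0.59, against −0.21 over the 10 p200 genes. Without NOD.B10 replicate 1, NOD.B10 replicate 3 or BL/10 replicate 2 the count of 21 became 13, 12 and 13. Over all genes tested the calls fell from 2656 to 1269, 1395 and 1580 with the same libraries left out. Leaving out the libraries labelled 36 weeks leaves 1 BL/10 library. The calls then fell over this list and over all genes, and those left in the list were all lower.

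**Figure D5:**
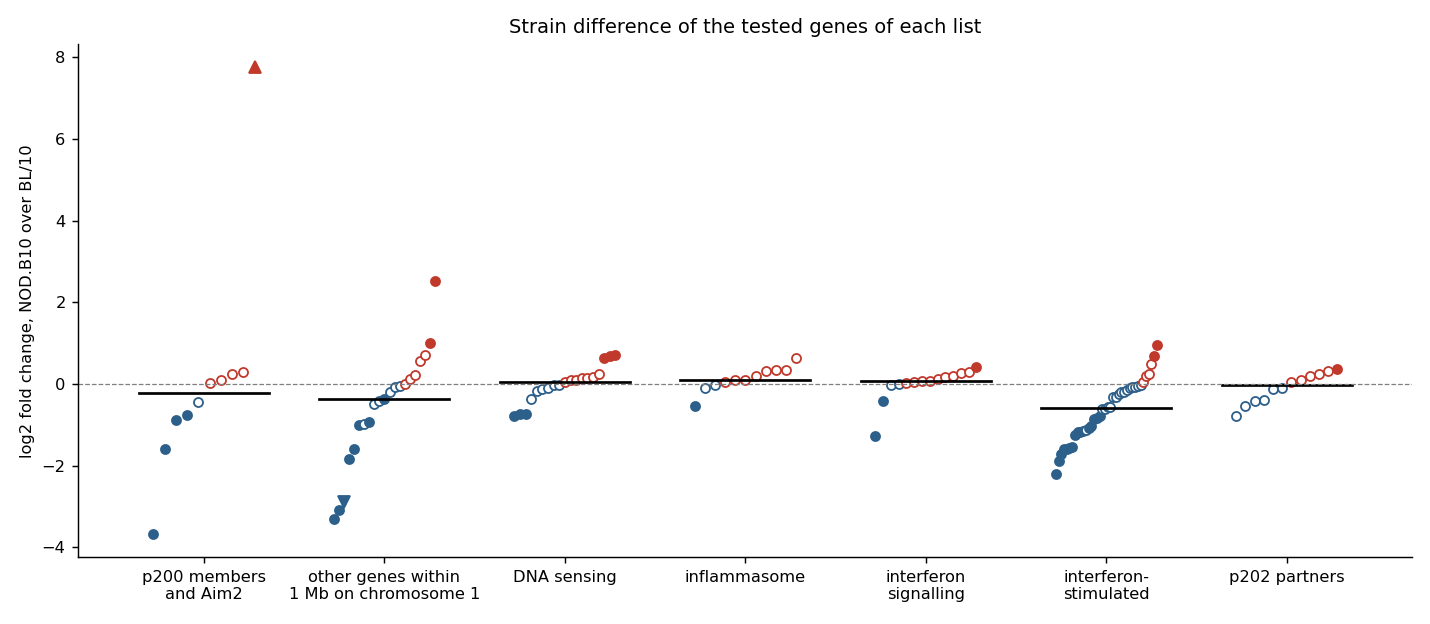
Log2 fold change of NOD.B10 over BL/10 (vertical axis) of each tested gene of 7 lists, in order of its value, where filled symbols passed the threshold, red is positive, blue is negative and horizontal lines are medians. Triangles mark Ifi202b and Olfr420 at their bounds, and the interferon-stimulated genes have the lowest median, −0.59.

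Summed marker levels of several cell types also differed between the strains, and in bulk tissue fewer cells of a type and less RNA per cell cannot be told apart. Markers counted here as higher or lower are those that passed the threshold, as 9.11% (higher) and 8.22% (lower) of all genes tested did. The summed level of 8 neutrophil markers was 2089 to 2394 CPM in NOD.B10 and 6007 to 12607 CPM in BL/10, with 8 of 8 lower in NOD.B10. Monocyte markers summed to 342 to 377 CPM against 485 to 734 CPM, with 5 of 6 log2 fold changes negative and 1 of 6 passing as lower. The gene that passed, Ly6c2, had a mean of 9.95 CPM in NOD.B10 and 157 CPM in BL/10. The gap in the monocyte sum rests largely on this gene. T cell markers summed to 835 to 1125 CPM in NOD.B10 and 434 to 554 CPM in BL/10, with 8 of 10 higher, and plasma cell markers to 3237 to 3734 CPM against 2042 to 2598 CPM, with 5 of 6 higher. The sums of B cell, macrophage, dendritic cell, natural killer cell and erythroid markers overlapped between strains. Of these, 2 of 8 macrophage and 1 of 5 natural killer cell markers were higher in NOD.B10. Lower were 1 of 5 natural killer cell and 1 of 8 erythroid markers, and no B cell or dendritic cell marker passed. Markers of pancreatic acinar cells summed to 21.9 to 30.7 CPM in NOD.B10 and to 11780, 1843 and 106 CPM in BL/10 replicates 1 to 3. No marker was at 0 in every library, and the part that these shifts play in the p200 values was not tested.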

How the data were processed

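Whole-spleen RNA was sequenced as single-end reads of 50 bases. The authors deposited raw counts per gene, not normalised, made per the file headers with featureCounts 1.5.1 on exons of the Ensembl 84 annotation (GRCm38) without strand. Reads mapped to several places or overlapping several genes were not counted. The submitters' processing notes name HISAT2 2.0.5, whereas the study's methods name TopHat2. Groups came from the sample descriptions, which match the column names. Gene symbols were matched for 47224 of 47729 identifiers. The header also names Myd88-deficient libraries, which were not analysed here.

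Counts were analysed with edgeR 4.0.16 in R 4.3.3 (filterByExpr, TMM scaling, quasi-likelihood test, strain as the only term, Benjamini-Hochberg adjustment over the 15330 genes tested, threshold 0.05). CPM values used TMM-scaled library totals. A gene at or under 3 counts in all libraries of a strain was given a lower bound against 3 counts per library. Alternatives were DESeq2 1.42.0, limma 3.58.1 (voom), other scalings and filters, a replicate block, libraries left out and a threshold of 0.01. Transcript stretches came from GENCODE M21. The genes named are the 10 members, the genes within their span, any gene of the pathway lists and the monocyte marker Ly6c2. Up to 5 in each direction of the induced interferon genes and of the neighbours are also named. The members and lists were chosen with earlier results of these data known. The code was tested on simulated data. The study's methods call the libraries of each strain biological replicates. SDs measure the spread between libraries. SEs were derived from the log2 fold change and the edgeR test statistic, whose estimate of spread borrows from all genes. Floors cover counting error only.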

Additional observations from a re-analysis of the deposited data

How the results depend on the processing

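Over the 10 p200 genes and the alternatives, 140 of 149 log2 fold changes kept their direction and their side of the threshold. Ifi202b, Ifi213 and Ifi209 passed under every alternative that tested them, and Ifi202b was removed by the filter of at least 10 counts in every library. The 6 changes of direction concerned genes that had not passed: Mndal was −0.054 without NOD.B10 replicate 3, −0.035 without BL/10 replicate 2, −0.062 without BL/10 replicate 3 and −0.24 without the libraries labelled 36 weeks, Ifi205 was −0.043 without BL/10 replicate 3 (up to 0.28 with another library left out), and Aim2 was −0.12 without the libraries labelled 36 weeks. With 1 library left out in turn, 5 to 6 of the p200 genes, 1269 to 4107 of all genes, 7 to 10 neighbouring genes, 3 to 8 DNA sensing and inflammasome genes, 12 to 26 interferon genes and 0 to 5 p202 partners passed. All genes ranged from 1269 without NOD.B10 replicate 1 to 4107 without BL/10 replicate 1. Without the libraries labelled 36 weeks, which leaves 1 BL/10 library assumed to vary like NOD.B10, the counts were 3, 1001, 4, 2, 7 and 0 in the same order. At an adjusted p under 0.01 they were 3, 1035, 6, 2, 9 and 0. Neighbouring genes numbered 16 with no filter beyond 1 count and 6 with the filter of 10 counts, and p202 partners 4 with DESeq2 and 3 with no filter. The causes were not tested beyond the fewer genes, samples or stricter threshold by construction.

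The replicate numbers did not pair the samples: same-numbered libraries had correlated deviations with r = 0.032, 0.17 and −0.084. With the number as a replicate block, 5 p200 genes, 2889 genes in all and 4 p202 partners passed.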
